A study of Mus musculus with 6 samples.

Results

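The genes described are 10 receptors and bridging molecules by which macrophages bind and swallow dying cells: Mertk, Axl, Tyro3, Gas6, Pros1, Timd4, Stab1, Itgav, Itgb5 and Mfge8. They were taken by symbol from the deposited count table, where they are 10 of 15458 rows, and all 10 were among the 13120 genes with enough counts to test. The libraries came from Kupffer cells, the macrophages that live in the liver sinusoids, sorted by FACS from C57BL/6 mice labelled wild type on day 18 after implantation of Hepa1-6 cells, a mouse hepatoma line. In the 3 KC_EV libraries the tumour cells carried an empty vector, and in the 3 KC_Epo libraries they overexpressed erythropoietin (EpoOE), the hormone that drives red cell formation. The labels do not state the vector's promoter, whether the tumour line was 1 clone, the age of the mice, pooling of mice or the sort gate. Since the numbers on the labels do not say that each library is a separate animal, the p-values reflect spread among these libraries, which may be technical.

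Dying cells expose phosphatidylserine on their outer membrane, and phagocytes read it in several ways. Timd4 (TIM-4) and Stab1 (stabilin 1) bind the lipid themselves. The TAM receptor tyrosine kinases Tyro3, Axl and Mertk bind it through the vitamin K-dependent bridging proteins Gas6 and protein S (Pros1); Gas6 binds all of them, while protein S binds Tyro3 and Mertk. Mfge8 (milk fat globule-EGF factor 8) bridges the lipid to integrins that contain the alpha v chain (Itgav), among them alpha v beta 5 (Itgb5). Kupffer cells use such receptors to clear aged red cells, platelets and apoptotic cells from blood, and TIM-4 is also used as a marker of the resident population.

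Depth was 23201076 to 33280754 counts per library. As a check of the groups, Epo was read at 21 to 44 counts per KC_Epo library and at 0 in KC_EV, where a floor of 3 counts over the group allows up to 0.0310 CPM. Defining markers of the labelled cell type were abundant: Clec4f and Vsig4, proteins of Kupffer cells, had means of 6400 and 1149 CPM with empty vector and of 11032 and 2021 CPM with EpoOE. CPM is the usual depth-scaled count, here with library totals corrected by the trimmed mean of M values (TMM). Summed over the 13 Kupffer cell markers, the level was 28740 to 31302 CPM in KC_EV and 46388 to 50767 CPM in KC_Epo. Sums of sinusoidal endothelial markers went the other way, with 5841 to 6968 CPM for empty vector and 2675 to 3790 CPM in the EpoOE libraries. Hepatocyte sums were 2600 to 3242 CPM and 6108 to 20859 CPM, and red cell sums 33.5 to 43.1 CPM and 606 to 1109 CPM. In such bulk libraries fewer cells of a type and less RNA per cell cannot be told apart.

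The receptors Axl and Mertk and the integrin chains Itgb5 and Itgav were higher in KC_Epo, and the bridging molecules Mfge8 and Gas6 and the receptor Stab1 were lower. Timd4, Pros1 and Tyro3 did not pass the test. By the edgeR quasi-likelihood test 7 of 10 members passed an adjusted p of 0.05, where 32.3% of all genes tested passed; 4 were higher (16.9% of all genes) and 3 lower (15.4%). The 3 libraries of one group did not overlap those of the other for 8 members, 4 in each direction, against 48.3% of all genes (24.1% higher and 24.2% lower). The median absolute log2 fold change was 0.65 over the members and 0.25 over all genes tested. Signed medians were 0.18 and -0.0045. The 7 members that passed kept their direction and call under every size factor tried, including library sizes without factors, which shift the median of all genes to -0.16. With library sizes only, the log2 fold changes of Timd4 and Tyro3 were 0.0037 ± 0.076 and 0.03 ± 0.37 (SE), with no direction beyond their error.

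**Figure D1:**
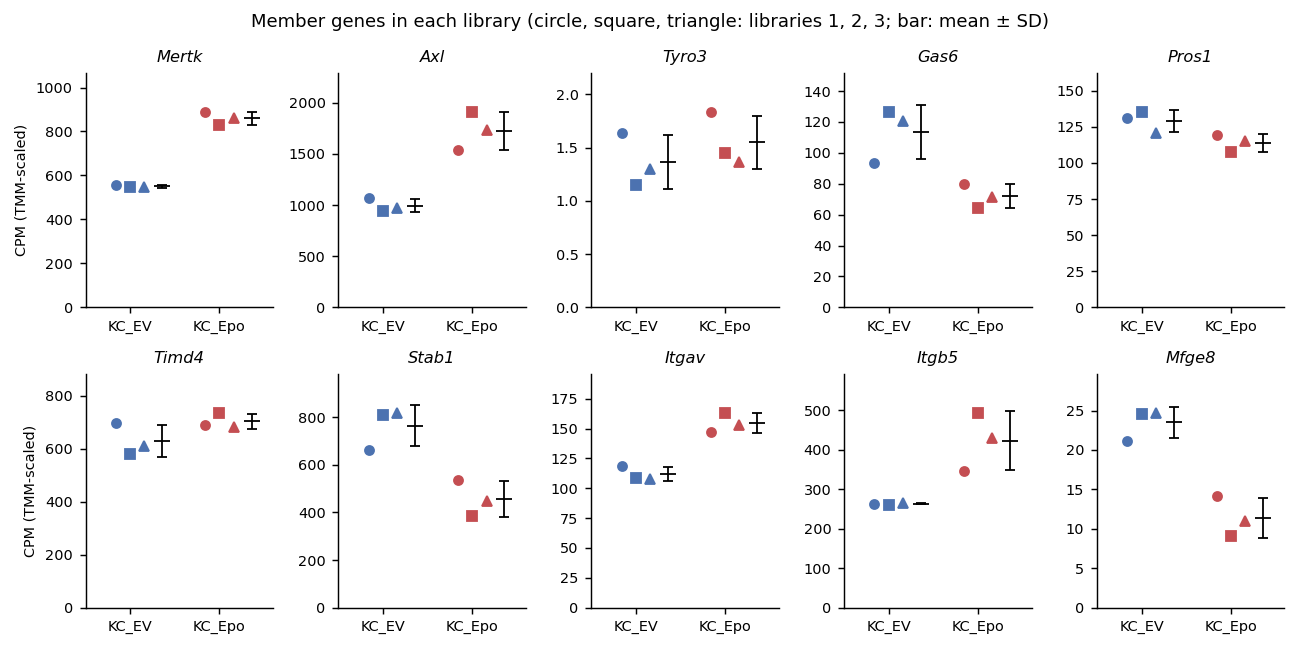
Level of each member in TMM-scaled CPM (vertical axes, each from 0) in the 3 KC_EV and 3 KC_Epo libraries, with the mean ± SD beside the points. All 3 KC_Epo libraries lie above KC_EV for Mertk, Axl, Itgav and Itgb5 and below it for Gas6, Pros1, Stab1 and Mfge8, while the groups overlap for Tyro3 and Timd4.

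Of the TAM receptors, Mertk, the member most used for clearance of apoptotic cells by tissue macrophages, was read at 557, 545 and 548 CPM in KC_EV 1 to 3 and at 888, 831 and 861 CPM in KC_Epo 1 to 3. The groups were far apart, and libraries within a group were close together. Mertk rose 1.56-fold, with a log2 fold change of 0.64 ± 0.07 (SE, n = 3 each, edgeR adjusted p = 3.4e-05). Axl, a receptor that is induced in activated macrophages and binds Gas6, was at 1068, 939 and 974 CPM and then at 1535, 1907 and 1733 CPM. Every KC_Epo library was above every KC_EV library, and KC_Epo 1 was the lowest of its group. Axl rose by a log2 fold change of 0.80 ± 0.09 (edgeR adjusted p = 6.2e-05), the largest rise among the members. Tyro3, known mainly from the nervous system, was near the bottom of the range, with 36 to 52 counts per KC_EV library and 30 to 57 per KC_Epo library. Its levels overlapped, at 1.15 to 1.64 and 1.37 to 1.83 CPM, and the fitted value of 0.19 ± 0.37 (edgeR adjusted p = 0.73) is too imprecise at this depth to show a change of the size seen in the other receptors.

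Within the TAM receptors, Axl supplied 64.3% ± 1.26 of the counts in KC_EV and 66.6% ± 3.15 in KC_Epo (SD, n = 3). Mertk supplied 34.2 to 36.7% across the KC_EV libraries and 36.6, 30.3 and 33.2% in KC_Epo 1 to 3. The Mertk shares overlapped, and the difference of -2.27 percentage points did not exceed the spread (exact two-sided permutation p = 0.3, adjusted over 3 shares p = 0.3; 0.1 is the smallest that 3 against 3 libraries allow). It was -0.747 without KC_Epo 2 and -3.88 without KC_Epo 1. Tyro3 held 0.0878% ± 0.0119 and 0.0604% ± 0.0131.

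Gas6, the TAM ligand that also binds Axl, stood at 93.7, 126 and 121 CPM in KC_EV 1 to 3 and at 79.6, 64.1 and 71.7 CPM in KC_Epo 1 to 3. KC_EV 1 was the lowest library of its group and KC_Epo 1 the highest of the other, and the groups did not overlap. Gas6 fell by 0.66 on the log2 scale (SE 0.12, edgeR adjusted p = 0.0028), opposite in direction to its receptors Axl and Mertk. Pros1, protein S, which also serves as an anticoagulant cofactor, was at 131, 135 and 121 CPM and at 119, 107 and 115 CPM. Its groups lay side by side without overlap, but the log2 fold change of -0.18 ± 0.07 did not pass (edgeR adjusted p = 0.082, unadjusted p = 0.032). It passed with upper-quartile factors (-0.24, adjusted p = 0.027) and with library sizes only (-0.34, adjusted p = 0.0053). Gas6 supplied 46.7% ± 4.39 of the counts of both ligands in KC_EV and 38.6% ± 1.30 in KC_Epo (SD, n = 3). No KC_Epo library reached the lowest KC_EV share, 41.7% (exact two-sided permutation p = 0.1, the smallest possible; adjusted over 3 shares p = 0.15).

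**Figure D2:**
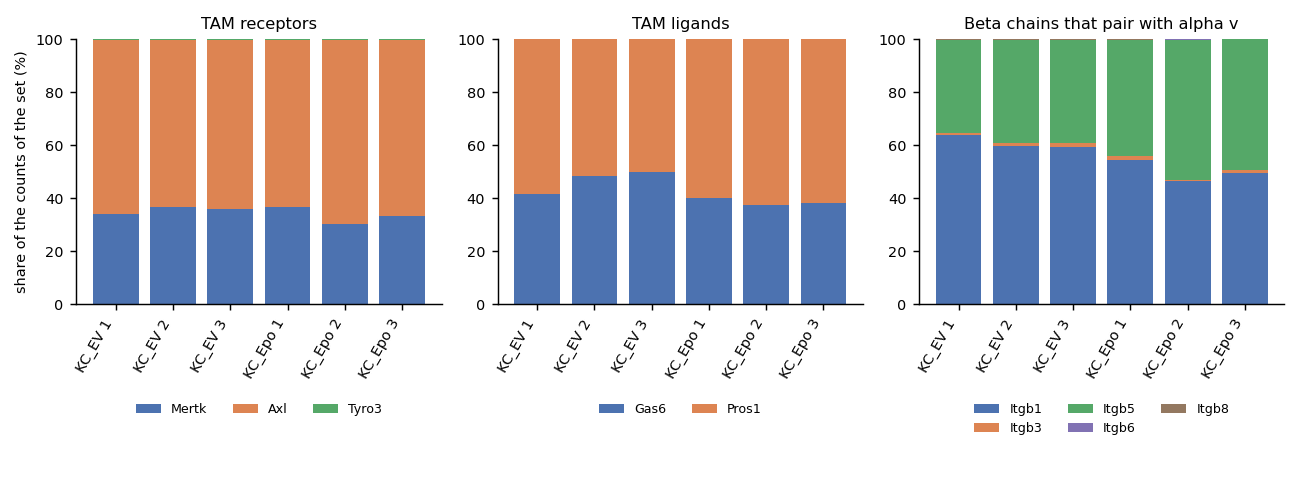
Share of counts in percent (vertical axes) that each gene supplied within the TAM receptors, the TAM ligands and the beta chains that pair with alpha v, as stacked bars for each library. Axl and Mertk make up nearly all TAM receptor counts in both groups, and the Itgb5 share (green, right panel) is 35.2 to 39.0% in KC_EV and 44.1 to 53.0% in KC_Epo.

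Of the receptors that bind phosphatidylserine directly, Timd4 was at 695, 579 and 610 CPM in KC_EV 1 to 3 and at 690, 736 and 682 CPM in KC_Epo 1 to 3. KC_EV 1 lay among the KC_Epo libraries, so the groups overlapped. The log2 fold change of 0.16 ± 0.08 did not pass (edgeR adjusted p = 0.15), and without KC_EV 1 it passed at 0.24 (adjusted p = 0.035). It was 0.10 with upper-quartile factors (adjusted p = 0.39) and 0.0037 with library sizes only (adjusted p = 0.97). In the same libraries the summed Kupffer cell markers were 1.6-fold higher in KC_Epo and 10 of the 13 rose. Adgre1 (F4/80), named after its value was seen, was the marker that fell (-0.72 ± 0.11). Stab1, a scavenger receptor shared by sinusoidal endothelium and macrophages, was at 664, 809 and 820 CPM in KC_EV and at 537, 384 and 449 CPM in KC_Epo. All KC_Epo libraries were below all KC_EV libraries, and KC_EV 1 and KC_Epo 1 were the closest. Stab1 fell by 0.74 on the log2 scale (SE 0.13, edgeR adjusted p = 0.0024). Its relative Stab2, an endothelial receptor for the same lipid, fell by 0.27 on the log2 scale (SE 0.09, adjusted p = 0.044), although its groups overlapped.

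The integrin chain Itgav was at 118, 109 and 108 CPM in KC_EV 1 to 3 and at 147, 163 and 153 CPM in KC_Epo 1 to 3. The groups were separate, and Itgav rose by a log2 fold change of 0.47 ± 0.07 (edgeR adjusted p = 0.00049). Itgb5, whose protein pairs only with alpha v, held 264, 261 and 265 CPM and then 346, 495 and 430 CPM. The KC_EV libraries were nearly equal while those of KC_Epo were spread out, with KC_Epo 1 lowest and KC_Epo 2 highest. Itgb5 rose by 0.69 ± 0.11 (edgeR adjusted p = 0.0011). Among beta chains that pair with alpha v (Itgb1, Itgb3, Itgb5, Itgb6 and Itgb8), its share of counts was 37.7% ± 2.18 in KC_EV and 48.8% ± 4.5 in KC_Epo (SD, n = 3). These shares did not overlap (exact two-sided permutation p = 0.1, the smallest possible; adjusted over 3 shares p = 0.15). Itgb1, which also pairs with many other alpha chains and was, like Itgb3, named after its values were seen, did not pass at 428 ± 43.7 and 431 ± 3.02 CPM, nor did Itgb3 at 7.91 ± 1.53 and 8.17 ± 2.90 CPM. Itgb6 and Itgb8 fell from means of 0.559 and 0.810 CPM to 0.0733 and 0.165 CPM, and both calls were lost without KC_EV 1, without KC_Epo 3 and without both KC_EV 1 and KC_Epo 1.

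Mfge8, the bridge between phosphatidylserine and these integrins, was at 21.2, 24.6 and 24.8 CPM in KC_EV 1 to 3 and at 14.1, 9.07 and 11.0 CPM in KC_Epo 1 to 3. It was lower in all KC_Epo libraries, with KC_Epo 1 the highest of them. Mfge8 fell by 1.04 on the log2 scale (SE 0.15, edgeR adjusted p = 0.0004), to 0.485 of its KC_EV level, the largest fold change of the members in either direction. Both integrin chains thus rose where their bridging molecule fell.

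**Figure D3:**
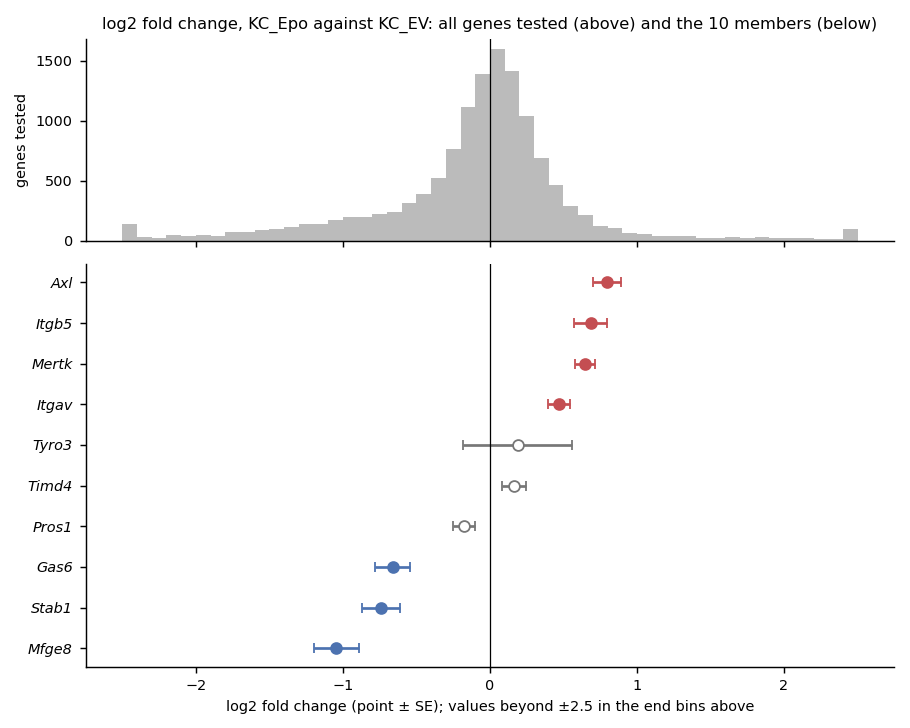
Log2 fold change of KC_Epo against KC_EV (horizontal axis) for all 13120 genes tested (upper panel, number of genes per bin) with values beyond 2.5 in either direction gathered in the end bins, and for the 10 members (lower panel, point ± SE; filled points passed the edgeR test, red higher and blue lower, open points did not). The members run from -1.04 for Mfge8 to 0.80 for Axl.

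The summed level of sinusoidal endothelial markers was lower along with the 3 members that fell. Across KC_EV 1 to 3 the endothelial sum was 5841, 6968 and 6500 CPM, and across KC_Epo 1 to 3 it was 3790, 2675 and 3089 CPM. Stab1, Gas6 and Mfge8 were each lowest in KC_EV 1 within KC_EV. In KC_Epo each was highest in library 1 and lowest in library 2, as was the endothelial sum. The same libraries were lowest and highest for the stellate cell and dendritic cell sums, and for the hepatocyte and red cell sums, which rose. This order was therefore not particular to endothelium. Of the 17 endothelial markers 13 fell and 1 rose, with a median log2 fold change of -1.46, a larger fall than that of any member. Of the first 2 markers on the list, Stab2 was at 721 ± 64.2 and 600 ± 59.8 CPM, and Lyve1 did not pass at 89.4 ± 9.04 and 71.0 ± 18.5 CPM. Stellate cell and fibroblast sums were also lower, at 113 to 123 CPM and 29.7 to 67.6 CPM, with Col1a1 (25.0 ± 2.41 to 4.49 ± 0.871 CPM) and Col1a2 (26.6 ± 1.58 to 5.36 ± 1.14 CPM). Of the 9 markers on that list 4 fell, and 5 did not pass, of which Reln (0.46 ± 0.45) and Pdgfrb (0.55 ± 0.29), named after their values were seen, had fitted values above 0. Lower as well were dendritic cell sums, at 158 to 172 CPM and 113 to 117 CPM, where 5 of 8 markers fell and 0 rose, with Xcr1 at 10.5 ± 0.514 and 1.30 ± 0.291 CPM and Clec9a at 67.8 ± 1.46 and 69.0 ± 2.23 CPM. No marker of these 3 lists was at 0 in all libraries. The part of other cell types in the lower Stab1, Gas6 and Mfge8 was not tested.

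Kupffer cell markers were higher along with the members that rose. Their median log2 fold change was 0.64, beside 0.64 for Mertk, 0.80 for Axl, 0.69 for Itgb5, 0.47 for Itgav and 0.16 for Timd4. Within KC_Epo the sum was 46388, 50767 and 47614 CPM in libraries 1 to 3; Axl, Itgb5 and Itgav were likewise lowest in library 1 and highest in library 2, whereas Mertk was highest in library 1. Whether the share of Kupffer cells in the sort differed was not tested. Hepatocyte markers, among them Alb (1944 ± 188 and 9084 ± 5352 CPM) and Apoa1 (207 ± 35.0 and 724 ± 362 CPM), were at 20859, 6108 and 12476 CPM in KC_Epo 1 to 3. Of the 14 on the list 11 rose, while Cps1 (-0.42 ± 0.49), Ass1 (-0.43 ± 0.45) and Pck1 (-0.75 ± 0.43), named after their values were seen, did not pass. Taking hepatocyte, red cell and immunoglobulin genes out of the table left the same number of members higher and lower (4 and 3). That step drops only those rows before the fit, and endothelial genes were kept. Reads from other cells that count under the members stay in, so their part was not tested by it.

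**Figure D4:**
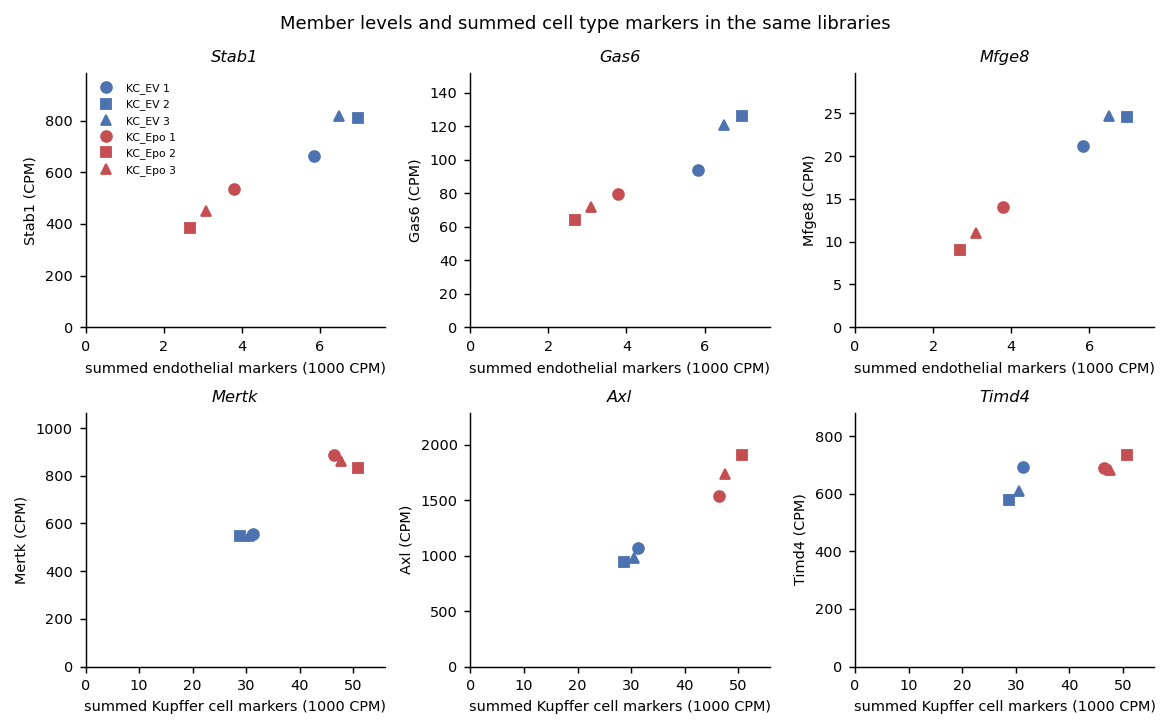
Levels of 3 members that fell (upper row, against summed endothelial markers) and of Mertk, Axl and Timd4 (lower row, against summed Kupffer cell markers), both in CPM, 1 point per library. Stab1, Gas6 and Mfge8 are lowest in KC_Epo 2, which also has the lowest endothelial sum. Within KC_Epo that library also has the lowest hepatocyte, red cell and stellate cell sums (not drawn). Timd4 lies between 579 and 736 CPM across both levels of the Kupffer cell sum.

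The remaining cell type sums were far below the Kupffer cell sums in both groups, though those of monocytes and neutrophils were above the stellate and dendritic cell sums. Cholangiocyte sums were 16.1 to 45.3 CPM in KC_EV and 3.86 to 8.13 CPM in KC_Epo (Epcam 2.54 ± 0.547 and 0.791 ± 0.384 CPM, Krt19 7.47 ± 1.91 and 2.79 ± 1.37 CPM). In KC_EV 1, which had the highest sum, Krt7 was at 35.7 CPM, against 3.68 and 4.28 CPM in KC_EV 2 and 3. Krt7 was named after its values were seen. Of the 5 markers 2 fell and 3 did not pass. Monocyte, neutrophil and T and NK cell sums overlapped between groups, at 437 to 551 against 498 to 713 CPM, 261 to 439 against 265 to 322 CPM and 54.8 to 65.3 against 40.2 to 58.3 CPM. Sums of B and plasma cell genes were 175 to 195 and 206 to 211 CPM, those of platelets 37.3 to 39.7 and 52.7 to 58.9 CPM, and those of Hepa1-6 tumour genes 8.79 to 12.3 and 8.20 to 8.64 CPM. Of the 7 B and plasma cell markers 2 rose and 5 did not pass, and their median log2 fold change was -0.35.

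Levels can be compared between genes only per length, and were divided by the length of all exons in GENCODE vM21. In KC_EV the order was Timd4 at 289 ± 27.8 CPM per kb, Axl at 197 ± 13.2, Mertk at 127 ± 1.37, Stab1 at 74.3 ± 8.47, Itgb5 at 74.1 ± 0.537, Gas6 at 44.6 ± 6.86, Pros1 at 31.6 ± 1.80, Itgav at 10.4 ± 0.542, Mfge8 at 5.01 ± 0.427 and Tyro3 at 0.22 ± 0.0404 (SD, n = 3). Only Stab1 and Itgb5 overlapped as neighbours in that order. In KC_Epo Axl came first at 343 ± 36.9 CPM per kb, within the spread of Timd4 at 323 ± 13.3, since Timd4 was still above Axl in KC_Epo 1. Itgb5 at 119 ± 21.0 then stood clear of Stab1 at 44.4 ± 7.44. Gas6 and Pros1 overlapped at 28.2 ± 3.03 and 27.9 ± 1.52. By the longest coding transcript instead, Stab1 and Itgb5 stood at 95.6 and 80.3 CPM per kb in KC_EV, and Pros1 was above Gas6 in KC_Epo (34.5 and 28.2). Axl was then above Timd4 in every KC_Epo library (404 ± 43.6 and 323 ± 13.3). Gas6 and Pros1 then overlapped in KC_EV (44.6 ± 6.86 and 39.1 ± 2.23).

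**Figure D5:**
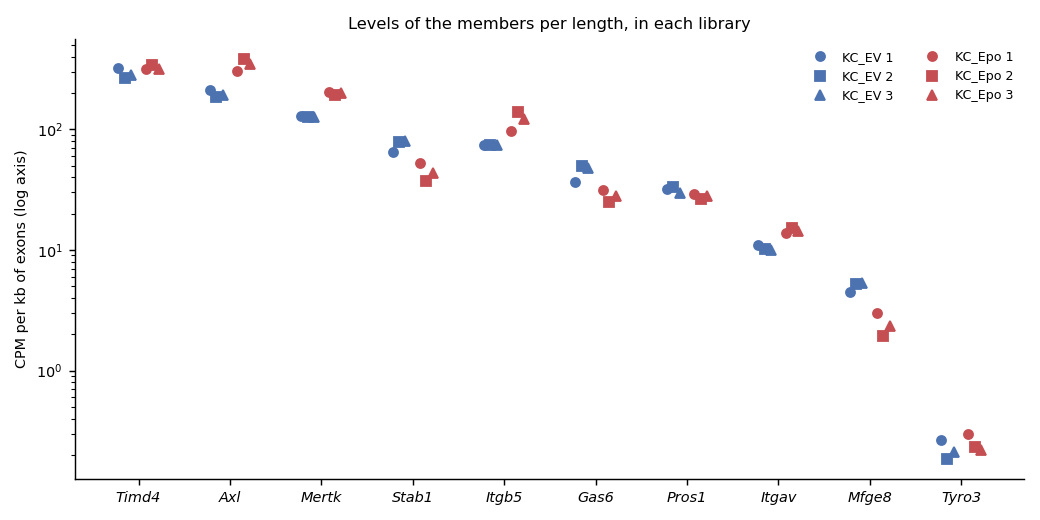
Level per length of each member, in CPM per kb of exons on a log axis, in each of the 6 libraries, ordered by the KC_EV mean. Timd4, Axl and Mertk lie at the top in all libraries and Tyro3, at means of 0.22 and 0.25, at the bottom.

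Since members moved in opposite directions, the sequences before their start sites are shown for a member that rose (Itgb5), those with the largest falls (Stab1 and Mfge8) and one that did not pass (Timd4). The 250 bases before the RefSeq start site are given 5′ to 3′ on the gene's strand, on GRCm38.p6, where all 10 members had an entry. Capitals mark matches on either strand to 5 motifs: the GC box GGGCGG, the PU.1 core GAGGAA, the MAF core TGCTGA, the nuclear receptor core AGGTCA and the TATA box TATAAA.
Itgb5, chr16:33829415-33829664, plus strand: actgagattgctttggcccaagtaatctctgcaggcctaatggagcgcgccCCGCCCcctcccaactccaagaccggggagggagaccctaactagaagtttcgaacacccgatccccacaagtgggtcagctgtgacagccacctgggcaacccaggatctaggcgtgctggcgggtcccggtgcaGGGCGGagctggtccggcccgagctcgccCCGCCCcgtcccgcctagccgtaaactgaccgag
Stab1, chr14:31168642-31168891, minus strand: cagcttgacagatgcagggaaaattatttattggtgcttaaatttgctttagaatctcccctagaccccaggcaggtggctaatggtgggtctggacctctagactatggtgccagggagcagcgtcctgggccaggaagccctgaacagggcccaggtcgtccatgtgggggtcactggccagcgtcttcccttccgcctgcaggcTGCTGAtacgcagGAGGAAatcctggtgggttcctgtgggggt
Mfge8, chr7:79149061-79149310, minus strand: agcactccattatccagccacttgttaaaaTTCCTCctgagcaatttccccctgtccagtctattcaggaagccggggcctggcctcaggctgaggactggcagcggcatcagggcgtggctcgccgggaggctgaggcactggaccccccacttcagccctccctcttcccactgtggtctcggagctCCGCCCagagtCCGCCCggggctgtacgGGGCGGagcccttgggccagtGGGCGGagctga
Timd4, chr11:46810549-46810798, plus strand: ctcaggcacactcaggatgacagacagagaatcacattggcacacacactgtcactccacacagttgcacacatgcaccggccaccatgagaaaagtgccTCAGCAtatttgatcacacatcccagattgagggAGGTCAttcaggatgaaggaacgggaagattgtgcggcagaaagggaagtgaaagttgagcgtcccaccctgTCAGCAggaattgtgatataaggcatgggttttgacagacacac
In GENCODE vM21 bases just after the start sites of these 4 genes lie in a transcript of the same gene. The windows before them matched no transcript of that gene, and transcripts of other genes were not searched. The Itgb5 and Mfge8 windows held 3 and 4 GC boxes, and Stab1 and Timd4 held 0; the GC box was in 32.7% of 32851 RefSeq promoters of this length. Timd4 had 2 MAF cores and 1 nuclear receptor core, and Stab1 had 1 MAF core and 1 PU.1 core. Mfge8 had 1 PU.1 core. Over all promoters the PU.1 core was in 23.3%, the MAF core in 16.1%, the nuclear receptor core in 14% and the TATA box in 12.4%, the last in none of the 10 members. A member that rose and one that fell thus shared the GC box, and matches describe only these letters in these windows.

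Other receptors for dying cells changed in both directions: 9 of 20 tested rose and 5 fell, with a median log2 fold change of 0.13. Among all genes tested 16.9% rose and 15.4% fell, the shares to set beside this list and the next. Trem2, a lipid receptor of macrophages, rose by 1.34 ± 0.11 (edgeR adjusted p = 4.1e-06) and Cd300lf, which binds phosphatidylserine, by 1.16 ± 0.07 (adjusted p = 6.5e-07). The 5 that fell were Cd93 (-1.47 ± 0.16) and Olr1 (-2.11 ± 0.32), Havcr2 (TIM-3, -0.72 ± 0.20), the lipopolysaccharide co-receptor Cd14 (-0.55 ± 0.09) and Stab2. Stab2 is also on the endothelial list. Marco, which rose and was named after its value was seen, is also on the Kupffer cell list. Of other bridging molecules and opsonins 8 of 14 rose and 1 fell, with a median of 0.44; without KC_EV 2 or without KC_EV 3 these counts were 4 and 1. The complement protein C4b rose by 0.93 ± 0.08 and the lectin Lgals3 by 0.60 ± 0.08. Anxa1, a phosphatidylserine-binding annexin, fell by 1.55 on the log2 scale (SE 0.18). Mbl1, Mbl2 and Apoh, named after their values were seen, are liver plasma proteins and rose by 2.13 ± 0.45, 2.18 ± 0.34 and 2.20 ± 0.50, in libraries where hepatocyte markers were higher too.

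The machinery that carries out engulfment had more genes lower than higher, 7 and 4 of 18 tested, beside 15.4% and 16.9% of all genes. Its median log2 fold change was -0.11. Elmo1, the adaptor that joins the exchange factor Dock1 to Rac activation, fell by 0.41 (SE 0.07, edgeR adjusted p = 0.0014) while its relative Elmo2 rose by 0.40 ± 0.07 (adjusted p = 0.0014). Vav3, a Rac exchange factor, fell by 0.84 (SE 0.16), and Abca1, the lipid exporter, rose by 0.47 ± 0.07. The other genes that rose were Trio (0.32 ± 0.07) and Arhgap25 (0.34 ± 0.06). Without KC_EV 3 or without KC_Epo 3 the counts were 3 lower and 4 higher. For LC3-associated phagocytosis, in which autophagy proteins are put on the phagosome, 6 of 16 rose and 0 fell (median 0.16), a share of calls near the 32.3% of all genes; with library sizes only, 4 rose and 4 fell. Cybb, the catalytic subunit of the phagocyte NADPH oxidase, rose by 0.50 ± 0.08 and Atg7 by 0.60 ± 0.10.

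Of the find-me receptors and do-not-eat-me signals 2 of 11 rose and 2 fell, a share of calls near the 32.3% of all genes, and with library sizes only 0 rose and 4 fell. P2ry6, a receptor for nucleotides released by dying cells, rose by 0.36 ± 0.09 and Sirpa, which receives the CD47 signal, by 0.28 ± 0.07. Cd24a fell by 1.31 (SE 0.12) and S1pr1, a lipid receptor also found in endothelium, by 0.81 (SE 0.13). Without KC_Epo 1, 3 rose and 4 fell.

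Of 12 transcription factors known for control of efferocytosis genes 7 rose and 0 fell, beside 16.9% and 15.4% of all genes. Their median log2 fold change was 0.24, and with library sizes only 4 rose and 0 fell. Rxra, the partner of the LXR and PPAR receptors, rose from 389 ± 6.65 to 608 ± 58.4 CPM (0.65 ± 0.08, edgeR adjusted p = 0.00011). Nr1h3 (LXR alpha), named after its value was seen, rose by 0.20 ± 0.07 (adjusted p = 0.045), close to the threshold. Whether these factors bear on the members was not tested. On this list 6 rose with upper-quartile factors, a filter of 1 CPM in 3 libraries or the replicate block. It was also 6 without KC_EV 1, KC_EV 2, KC_EV 3 or KC_Epo 3. Among 15 genes of TAM shedding, gamma-carboxylation and signalling 3 rose and 3 fell, again near the 32.3% of all genes. The number that rose was 1 with library sizes only, 2 with upper-quartile factors and 5 with DESeq2 or without KC_Epo 2, beside 3 that fell in each. Adam10, a membrane protease, rose by 0.61 ± 0.08, Ifnar1, the interferon receptor chain that works with TAM receptors, by 0.33 ± 0.07 and the kinase Akt1 by 0.22 ± 0.08. Socs1, a signalling inhibitor that TAM receptors induce, fell by 1.39 (SE 0.19) and Twist1 by 1.85 (SE 0.46). Of the genes that handle swallowed material 9 of 13 rose and 1 fell, beside 16.9% and 15.4% of all genes, with a median of 0.49. Abca1 is among those that rose and is also counted in the engulfment list. Dnase2a, the lysosomal DNase, rose by 0.92 ± 0.07 and Lipa, the lysosomal acid lipase, by 1.01 ± 0.09. Slc7a11, a cystine transporter, fell by 2.57 (SE 0.82, adjusted p = 0.046), and its KC_EV mean rested on library 1, at 6.18 CPM against 1.28 and 1.18 CPM in libraries 2 and 3. That call was lost with no filter, a filter of 1 CPM in 3 libraries, the replicate block or limma-voom, and without KC_EV 1, KC_Epo 1 or KC_Epo 3.

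The genes nearest to each member in pattern were found by the root-mean-square difference of centred log2 CPM over the 6 libraries, among 10048 genes. Ctsl, a cathepsin (0.017), and Nupl2 (0.028) were nearest to Mertk, and Fkbp5 (0.031) was near to Axl. Atp2b1 (0.015) and Snx5 (0.02) were nearest to Itgav, and the lipoprotein receptor Scarb1 (0.044) and Ston2 (0.047) to Itgb5. Mapk11 (0.035) and Hdc (0.043) were nearest to Stab1, Gimap5 (0.043) and H2-Q4 (0.049) to Gas6, and Sptbn1 (0.057) and Nxn (0.06) to Mfge8. Of the members that did not pass, Pros1 lay nearest to Utp3 and Ctnnb1 (0.022 each), Timd4 to Ccdc51 (0.022) and Lcp1 (0.025), and Tyro3 to AI429214 (0.075) and Ctbp2 (0.077). Among the members themselves the closest were Gas6 and Stab1 (0.081) and Axl and Itgb5 (0.1).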

How the data were processed

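Messenger RNA was measured in 6 libraries. Per the labels' protocols, strand-specific TruSeq libraries were made from polyA RNA. Per the submitters' processing notes the build was GRCm39 and the tools included STAR 2.7.3a and HTSeq 0.11.2, with FastQC 0.11.8 and Bowtie2 2.5.1 also named, all without roles. How HTSeq treated strand is not stated. The authors deposited whole-number counts per gene symbol, not normalized, with 15458 rows. In 12 rows the symbol repeated that of another row, and the row with more counts kept the name.

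All genes were fitted together in R 4.3.3 by edgeR 4.0.16 (filterByExpr and TMM at defaults, robust quasi-likelihood fit, two-sided F test, Benjamini-Hochberg adjustment over the 13120 genes tested, threshold 0.05, no replicate block). Standard errors came from the F statistic. Shares of counts were compared by an exact two-sided permutation test over the 6 libraries, adjusted over 3 shares. Alternatives used other size factors, filters, DESeq2 1.42.0, limma-voom (limma 3.58.1), a replicate block and fits lacking 1 library. A fit lacking both KC_EV 1 and KC_Epo 1 was chosen after seeing the data. Libraries of a group differed by a chi-square per gene of at least 6.12, so none was a copy of another.

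The members and lists were chosen with earlier results of these data known. Named genes were the 10 members, in each pathway list up to 2 higher and up to 2 lower genes with the smallest adjusted p, the genes needed to say what a count of 5 or fewer holds, the 2 genes nearest to each member in pattern, and of cell type lists the summed level and first 2 markers, here given for the lists described in detail. Genes named outside this rule are marked, and 3 genes that it names are not reported here. On simulated counts for this comparison, over 13120 genes, the share called was 58% at a simulated 1.5-fold rise, 84% at 2-fold and 100% at 4-fold. It was 66% at a fall to 0.5 and 0.124% without a change. Each change was given to 50 genes, none from the lowest counts, and 12920 genes were left unchanged. In the data 32.3% of genes passed, which makes the adjustment less strict. The simulated shares therefore do not give the share of real changes that would be found here.

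Gene lengths came from GENCODE vM21 and promoters from RefSeq, both on GRCm38, another build than the authors', so no gene coordinates are set beside the counts.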

Additional observations from a re-analysis of the deposited data

How the results depend on the processing

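The 7 members that passed stayed past the threshold in the same direction under all 16 other settings (112 of 112 values), and the signs of Timd4, Pros1 and Tyro3 did not turn, although with library sizes only Timd4 (0.0037) and Tyro3 (0.03) were near 0. Leaving out each library in turn gave 7 to 8 members past the threshold, 4 to 5 higher and 3 lower. Pros1 passed after upper-quartile scaling (-0.24) and by library sizes only (-0.34). Timd4 was 0.10 after upper-quartile scaling and 0.11 to 0.24 with 1 library left out. Without KC_EV 1 and KC_Epo 1 together, an alternative chosen after seeing the data, 9 members passed, among them Pros1 (-0.21, adjusted p = 0.034) and Timd4 (0.25, adjusted p = 0.0067). The cause was not tested.

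Other beta chains numbered 1 past the threshold with no filter, 0 with a filter of 1 CPM in 3 libraries, 1 with the replicate block, 0 to 2 with each library left out and 0 with KC_EV 1 and KC_Epo 1 left out together. Ranges with 1 library left out were 5 to 10 for bridging molecules and opsonins, 7 to 14 for engulfment machinery and 3 to 7 for find-me and do-not-eat-me genes (7 with both libraries left out). Transcription factors numbered 4 with library sizes only. All genes past the threshold numbered 2728 to 4557, the lowest without KC_Epo 3, where 1477 were higher and 1251 lower. Of all calls 52.4% were higher; the share was 40.6% after upper-quartile scaling and 24.8% when library sizes alone were used. The replicate block gave 3358 calls and the same number of members (4 higher, 3 lower), with adjusted p up to 0.035 for Gas6; same-numbered libraries did not deviate together (correlations of -0.11, -0.15 and -0.04), so the numbers were not treated as pairs. With 1 library left out the share differences ran from -3.88 to -0.747 for Mertk, -10.6 to -6.42 for Gas6 and 9.04 to 13.5 for Itgb5; the Mertk extremes came without KC_Epo 1 and KC_Epo 2. Low counts limit Tyro3, Itgb6 and Itgb8.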
